A study of Rattus norvegicus with 12 samples.

Results

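The Zbtb16 locus was examined as the ATAC-seq peaks that start on chromosome 8 between 53 and 54 Mb, with those at the Zbtb16 promoter position that the study lists as more open after ethanol. The 12 peak lists held 426 such peaks of 730912 in all, from 24 in Control 3 to 58 in Ethanol 4, and 16 of them lay in the promoter region. The members were selected on the higher peak signal of this locus in Ethanol than in Control in these same libraries, so that difference is described here without a test. ATAC-seq uses a transposase to insert sequencing adapters into exposed DNA. It was applied to frozen amygdala of adult male Sprague Dawley rats without genetic modification. The 6 Control rats received saline and the 6 Ethanol rats received 1 g/kg ethanol, both as an intraperitoneal injection, and tissue was taken 1 h later. Each library was peak-called by itself, and the lists give positions and a score but no read counts, so depth is unknown. The lists held 50370 to 75847 peaks covering 75.6 to 134.6 Mb, with positions in the Rnor_6.0 build. They hold no expression values, so the tissue could not be checked against cell type markers.

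Zbtb16 encodes PLZF, a transcription factor with an amino-terminal BTB domain that recruits corepressors and histone deacetylases, and carboxy-terminal zinc fingers that bind DNA. It is needed for the maintenance of spermatogonial stem cells and the development of innate-like T cells, and it is a well known glucocorticoid-induced gene. An ATAC-seq peak marks DNA that is accessible, often a promoter or an enhancer, and does not itself report transcription. In the RefSeq gene order of the GRCr8 assembly, Zbtb16 lies between Nnmt, a nicotinamide N-methyltransferase gene, and Htr3a and Htr3b, which encode serotonin receptor channel subunits. Usp28, Cldn25, Zw10, Tmprss5, Drd2 (the D2 dopamine receptor), Ankk1, Ttc12 and Ncam1 (a neural cell adhesion molecule) follow in that order. That build differs from the build of the lists, so the table gave neighbours only, and no peak was assigned to a gene other than Zbtb16. The study's annotation has the promoter region on the transcription start site of Zbtb16 and the peaks back to 53 Mb in its gene body, so lower coordinates run into the gene.

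Peaks covered more of the stretch in Ethanol than in Control, and most of the extra length lay on the gene body side. Over 53 to 54 Mb the lists covered 36604, 36687, 33785, 36890, 41440 and 49062 bp in Control 1 to 6. In Ethanol 1 to 6 they covered 49844, 60363, 48289, 77679, 44180 and 104593 bp. Ethanol 3 and Ethanol 5 lay within the range of the Control libraries, and the other 4 Ethanol libraries lay above it. Group means were 39078 ± 5475 bp for Control against 64158 ± 23186 bp for Ethanol, a 1.64-fold difference (here and below ± is the SD over 6 libraries unless an SE is named). Longer lists can hold more and wider peaks, so the bp were also set against the length that each whole list covered. This gave 448 ± 24.9 bp per Mb for Control against 653 ± 144 for Ethanol, and 5 Ethanol libraries lay above the highest Control library. Ethanol 1, at 468 bp per Mb, was the library that stayed within the Control range. The log2 difference was 0.54 ± 0.13 (SE), and 0.36 without both Ethanol 4 and Ethanol 6.

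The stretch was split at the upper end of the promoter region. Between 53 Mb and that end, peaks covered 6708, 7268, 10021, 12129, 17004 and 15453 bp in Control 1 to 6 and 14796, 36158, 23084, 47070, 16912 and 54593 bp in Ethanol 1 to 6. Ethanol 1 and Ethanol 5 fell within the Control range, and the other 4 were above it. Relative to covered length the means were 128 ± 33.1 bp per Mb for Control against 327 ± 140 for Ethanol, a 2.56-fold difference or 1.35 ± 0.29 on the log2 scale (SE). Here 5 of 6 Ethanol libraries were above every Control library, and Ethanol 1, at 139 bp per Mb, was not. Without the promoter region itself the log2 difference was 1.48 ± 0.33 (SE).

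**Figure D1:**
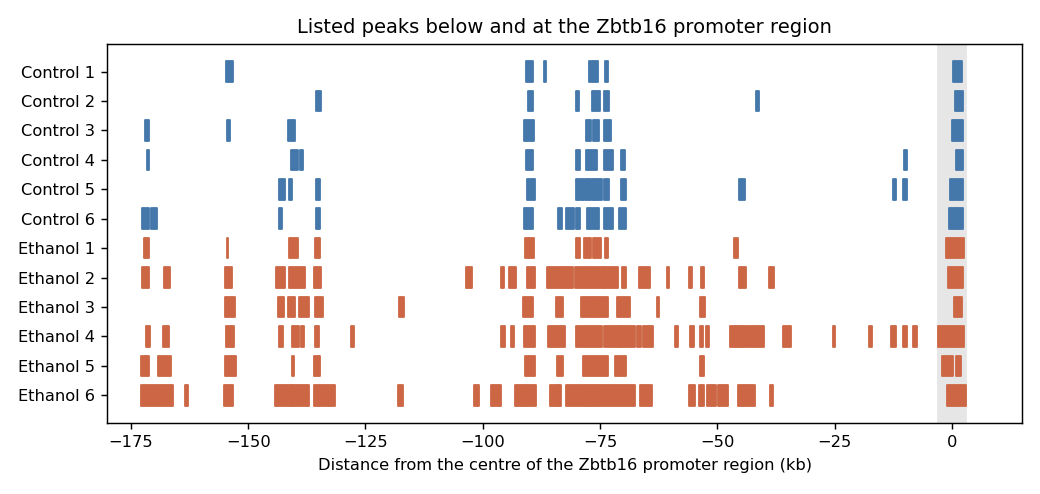
Horizontal bars are the listed peaks of each library, Control in blue and Ethanol in orange, against distance in kb from the centre of the Zbtb16 promoter region (grey band). Ethanol 2, Ethanol 4 and Ethanol 6 list 22, 31 and 23 peaks between 53 Mb and the end of the promoter region, against 6 to 15 in the Control libraries.

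Peaks on this side were both more numerous and wider on average in Ethanol. The Control lists held 9.17 ± 3.66 peaks there and the Ethanol lists 18.3 ± 8.43, and the mean peak width was 1266 ± 229 bp and 1728 ± 322 bp. In mean width the Control libraries ran from 1038 to 1670 bp, and only 1 Ethanol library, Ethanol 6 at 2374 bp, lay above them. The 3 Ethanol libraries with more peaks than any Control library were Ethanol 2, Ethanol 4 and Ethanol 6. The widest single peak of each library measured 1555 to 2403 bp in Control and 3124 to 9057 bp in Ethanol, a measure chosen after its values were seen. It includes the promoter peaks, on which the locus was selected, and in Ethanol 1 the widest was the promoter peak, at 3930 bp. How often other stretches of the genome show such a split was not measured. The widest peak of all was in Ethanol 6, the library with the greatest covered length.

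Above the promoter region the group means lay close together once list length was taken into account. Control lists covered 27648 ± 3936 bp on this side and Ethanol lists 32056 ± 9639 bp. Relative to covered length the values were 320 ± 54.1 and 326 ± 32.2 bp per Mb, and no Ethanol library lay above the highest Control library. The log2 difference was 0.03 ± 0.12 (SE). Between the promoter region and 53.4 Mb the lists covered 4636 ± 614 bp in Control and 6032 ± 1884 bp in Ethanol, where 4 Ethanol libraries lay above the Control range. Relative to covered length this was 54.2 ± 11.9 against 62.6 ± 14.8 bp per Mb, with a log2 difference of 0.21 ± 0.19 (SE), and 2 Ethanol libraries lay above that range and 1 below it. The rest of this side has a sparse and a dense part. From 53.4 to 53.8 Mb no library listed more than 2 peaks, and 5 of the 12 listed 0. From 53.8 to 54 Mb each library listed 13 to 21 peaks, which covered 263 ± 55.3 bp per Mb for Control against 257 ± 37.1 for Ethanol. Most of the listed sequence above the promoter lay in this dense part, in both groups.

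**Figure D2:**
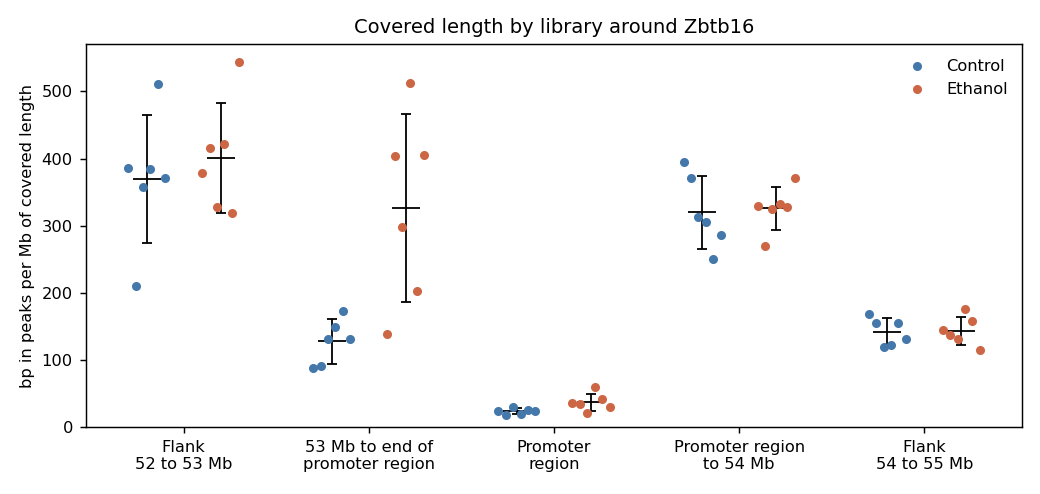
Points are libraries (Control blue, Ethanol orange), black marks are group means with SD (n = 6 each), and the vertical axis is bp in peaks per Mb of covered length in 5 stretches of chromosome 8. Between 53 Mb and the end of the promoter region, which includes the promoter region, the Ethanol libraries run from 139 to 512 bp per Mb and the Control libraries from 88.8 to 174.

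The flanking megabases were given the same measure. From 52 to 53 Mb peaks covered 370 ± 95.5 bp per Mb for Control against 401 ± 82.1 for Ethanol, with a log2 difference of 0.12 ± 0.19 (SE). From 54 to 55 Mb the values were 142 ± 20.4 and 144 ± 21.1 bp per Mb, with a log2 difference of 0.01 ± 0.12 (SE). In each flank 1 of 6 Ethanol libraries exceeded every Control library, and in the upper flank 1 also lay below them all.

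In windows of 50 kb the group means from 52 to 55 Mb were farthest apart, in bp, in 4 neighbouring windows, 1 of which lies outside the bounds. The window just outside, from 52.95 to 53 Mb, held 1200 ± 959 bp for Control against 5142 ± 3111 for Ethanol, and that from 53 to 53.05 Mb, just inside, held 1501 ± 1002 and 7145 ± 5195 bp. The next window, from 53.05 to 53.1 Mb, was the fullest of the 4 in both groups, with 7139 ± 2646 and 18461 ± 8847 bp. The window from 53.1 to 53.15 Mb, which holds the promoter region, had 2790 ± 1253 bp and 6497 ± 5141 bp. Relative to covered length these 4 windows held, from the lowest position up, 13.4 ± 10.3, 16.9 ± 11.02, 79.6 ± 17.8 and 31.5 ± 11.2 bp per Mb in Control. In Ethanol they held 52.2 ± 25.4, 71.0 ± 41.6, 189 ± 76.2 and 66.6 ± 54.9 bp per Mb. In the window of the promoter region 3 of 6 Ethanol libraries were above every Control library after division by covered length, and Ethanol 4, with 16008 bp, was the highest. No library had a peak in the 50 kb before 52.95 Mb, so the block began after an empty window. Above the promoter, the window from 53.2 to 53.25 Mb held little sequence in peaks, 393 ± 356 bp for Control against 1395 ± 660 for Ethanol. Its log2 difference relative to covered length was 1.60 ± 0.53 (SE), and 5 Ethanol libraries exceeded the Control range. At the other bound the window from 53.95 to 54 Mb held 7112 ± 1495 bp for Control against 7365 ± 1591 for Ethanol, and that from 54 to 54.05 Mb held 225 ± 371 and 78.5 ± 192 bp.

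**Figure D3:**
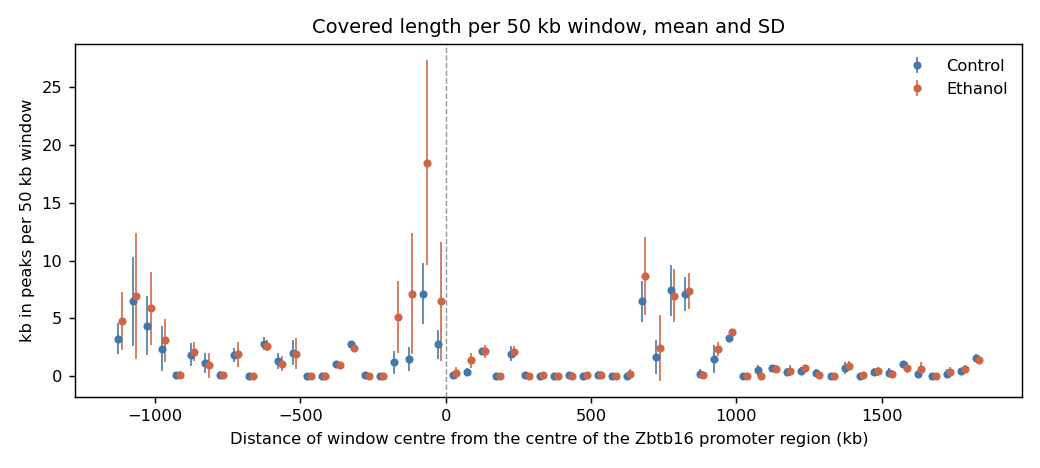
Points are the mean kb in peaks per 50 kb window from 52 to 55 Mb, with SD (n = 6 each), against distance in kb from the centre of the Zbtb16 promoter region (dashed line). The Ethanol mean exceeds the Control mean in the 4 windows that end at the promoter. The SD bars of both groups overlap in these 4 windows and in the dense block at the upper end of the megabase.

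Of the 20 windows from 53 to 54 Mb, 9 had at least 1 kb in peaks on average. The median log2 difference over these 9 was 0.16, against -0.04 over the 17815 windows of the genome with that much. Among those windows of the genome, 99.9% had a smaller log2 difference than the one from 53 Mb, and 99.3% and 98.9% had a smaller one than the next 2 windows. These ranks describe windows that were chosen for being different. In none of the 9 did every Ethanol library exceed every Control library, a split that 0.101% of all windows showed. Without Ethanol 1, 1 of the 9 windows had it, and 0.249% of all windows.

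The promoter region was the union of the peaks at the start site, from 53142420 to 53148464 on chromosome 8. Peaks covered 1893, 1510, 2351, 1597, 2487 and 2862 bp of its 6045 bp in Control 1 to 6. They covered 3930, 3173, 1717, 5474, 3528 and 4010 bp in Ethanol 1 to 6. Ethanol 3 fell within the Control range, and the other 5 exceeded it. The means were 2117 ± 536 bp and 3639 ± 1226 bp, or 24.1 ± 4.37 and 37.7 ± 12.7 bp per Mb of covered length, and 4 Ethanol libraries exceeded the Control range in the latter. The log2 difference relative to covered length was 0.65 ± 0.23 (SE), and 0.47 without Ethanol 4.

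All 12 libraries shared a core of 1234 bp, from 53146219 to 53147452. Beyond this core, peaks lay mainly at lower coordinates, in the gene. The lowest edge of any peak in the region, separate peaks included, lay 31 to 1452 bp below the core in Control. In Ethanol it lay 326 to 3799 bp below the core, and the means were 682 ± 569 and 2089 ± 1176 bp. The highest edge lay 15 to 332 bp above the core in Control and 0 to 1012 bp above it in Ethanol, with means of 239 ± 116 and 427 ± 370 bp. In Control 5, Control 6 and Ethanol 5 the core stood apart from a separate peak below it, and in Ethanol 4 the main peak of 4137 bp had another of 1337 bp below it. These separate lower peaks set the lowest edge of their libraries. They scored 7.59, 5.98, 7.24 and 6.01 in Control 5, Control 6, Ethanol 5 and Ethanol 4. Within their own lists these scores stood at the 50.7, 25.7, 37.6 and 26.7 percentile.

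**Figure D4:**
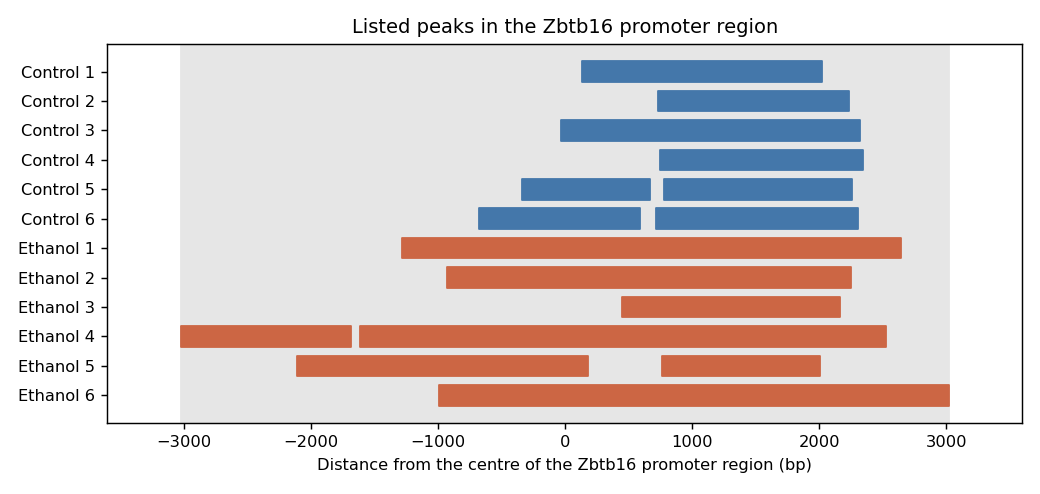
Horizontal bars are the listed peaks of each library (Control blue, Ethanol orange) within the merged promoter region (grey, 6045 bp), against distance in bp from its centre. The highest edges lie 0 to 1012 bp above the shared core. The lowest edges, separate peaks included, lie 31 to 3799 bp below it, the farthest being in Ethanol 4.

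The score of the strongest promoter peak was ranked within each library, since its meaning is not stated. It stood at the 69.1 to 80.6 percentile in Control and the 77.0 to 90.7 percentile in Ethanol, with means of 76.6 ± 4.01 and 84.5 ± 5.15. Ethanol 1 and Ethanol 5 had percentiles inside the Control range. Ethanol 3 had a narrow promoter peak but a percentile of 83.6, so width and score did not order the libraries in the same way.

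Merging the lists gave 80 regions from 53 to 54 Mb, 29 below the promoter region, the promoter region itself and 50 above it. Every library listed a peak in 10 of them, and 35 came from a single library. The longest was in the gene body, from 53066310 to 53077794, about 73 kb below the promoter region. Peaks covered 2714, 2465, 3821, 5328, 6166 and 5767 bp of it in Control 1 to 6 and 4080, 8364, 8121, 10740, 7346 and 11361 bp in Ethanol 1 to 6. Ethanol 1 was again within the Control range, and the other 5 were above it. The log2 difference relative to covered length was 0.83 ± 0.25 (SE), the largest of the 10. The promoter region came next, and then the region from 53051068 to 53056864 with 0.54 ± 0.21 (SE), where coverage was 1722 ± 416 and 2824 ± 929 bp.

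The 7 regions above the promoter that were listed in all 12 libraries had log2 differences from -0.34 to 0.48 with a median of -0.11. The one with the greatest mean coverage, from 53947497 to 53955094, held 4385 ± 830 bp for Control against 4432 ± 980 for Ethanol, and its log2 difference relative to covered length was -0.13 ± 0.08 (SE). The region from 53970520 to 53975763 held 3209 ± 1173 and 3318 ± 574 bp, with -0.11 ± 0.29, and that from 53839121 to 53843634 held 2206 ± 1033 and 3346 ± 792 bp, with 0.48 ± 0.28. The lowest values were -0.34 ± 0.23 for the region from 53899676 to 53904557 and -0.18 ± 0.19 for that from 53293874 to 53296239. The median over all 10 was -0.0011, against -0.09 over the 21635 regions listed in all libraries genome-wide. In 0 of the 10 did every Ethanol library exceed every Control library, as 0.0416% of those 21635 did, and in 0 did the reverse hold, as 0.148% did. Without Ethanol 1, 1 of 10 had the former split, and 0.119% of all such regions.

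Much of the extra length in Ethanol lay in regions that were not listed in every library. Of the 29 regions below the promoter, 23 were listed in more Ethanol than Control libraries, 2 in more Control libraries and 4 in equal numbers. Above the promoter the counts were 24, 14 and 12 of 50. Regions listed in 1 library made up 12 of the 29 below the promoter and 23 of the 50 above it, and they enter these counts. Over the 118843 merged regions of the genome, 38.8% were listed in more Ethanol and 29.5% in more Control libraries. Among the 45 regions of the locus that at least 2 libraries shared, 9 were listed in Ethanol only, where the share over the genome was 6.92%, and 1 in Control only, where it was 3.94%. Of those 9, 7 lay below the promoter. The one listed in the most libraries there, from 53091621 to 53092731, was present in 5 of 6 Ethanol libraries, and another in 5 of 6 lay above the promoter, from 53205879 to 53207339. The region from 53059152 to 53062901 had a peak in 1 Control library and in 5 of 6 Ethanol libraries, with coverage of 148 ± 362 and 2042 ± 1404 bp. These 3 regions were singled out after their values were seen.

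The locus was compared with its surroundings within each library, and only the Control libraries were tested, since the Ethanol values hold the signal the locus was selected on. In Control the megabase from 53 to 54 Mb held more sequence in peaks than the mean of its flanks in 6 of 6 libraries, with a log2 ratio of 0.83 ± 0.32 (two-sided exact sign-flip permutation test, p = 0.0312, the smallest that 6 libraries can give). Adjusted over the 3 tests of this kind the p was 0.0938 (exact permutation), which does not pass 0.05. In Ethanol the log2 ratio was 1.24 ± 0.24. The flank mean joins a fuller lower flank, 370 bp per Mb in Control, with a sparser upper one, 142 bp per Mb. In Control 5 the lower flank alone held 49908 bp, more than the 41440 bp of the locus. Over all 12 libraries the mean log2 ratio was 1.03 against the flanks and 0.45 against the rest of chromosome 8 per Mb. Both means include the Ethanol libraries with the selected signal, and the ratio to the rest of chromosome 8 is not given for Control alone. The mean score percentile of the locus peaks minus that of the other chromosome 8 peaks was -4.62 ± 4.49 points in Control (two-sided exact sign-flip permutation test, p = 0.0625, adjusted 0.0938) and -4.41 ± 2.80 points in Ethanol. Control 5 was the library with a difference above 0. The median width of the locus peaks had a log2 ratio to the rest of chromosome 8 of 0.07 ± 0.18 in Control (two-sided exact sign-flip permutation test, p = 0.406, adjusted 0.406) and 0.12 ± 0.18 in Ethanol.

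**Figure D5:**
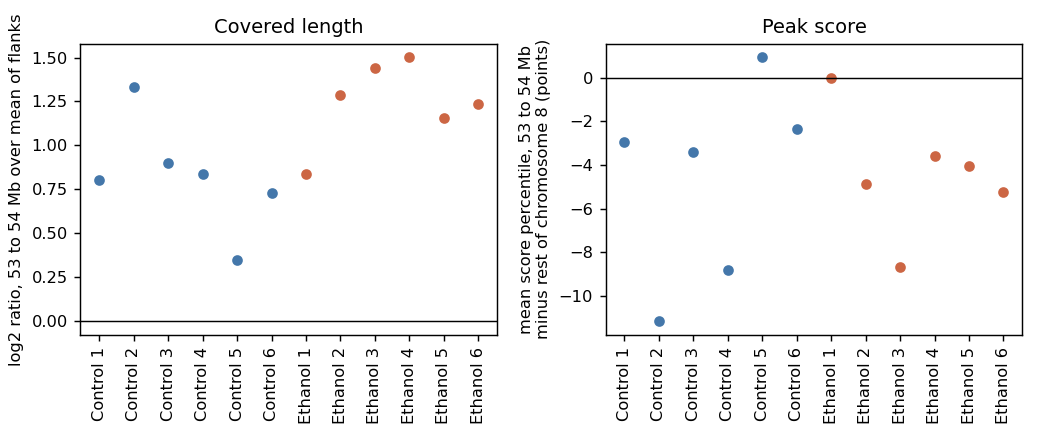
Each point is a library (Control blue, Ethanol orange). On the left is the log2 ratio of bp in peaks from 53 to 54 Mb to the mean of the flanks, above 0 in all 12 (only the Control libraries were tested), and on the right is the mean score percentile of the locus peaks minus that of the other chromosome 8 peaks, in points, below 0 in 11 of 12.

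List length was set beside these values within each group. Among the Control libraries the bp below and at the promoter had a positive correlation with total covered length (Pearson r = 0.80, exact permutation p = 0.0514, Spearman rho = 0.89, exact permutation p = 0.0333, n = 6). In Ethanol these were r = 0.56 (exact permutation p = 0.257) and rho = 0.37 (exact permutation p = 0.497, n = 6). For the side above the promoter r was 0.51 (exact permutation p = 0.362) and rho 0.20 (exact permutation p = 0.714) in Control. In Ethanol r was 0.97 (exact permutation p = 0.00833) and rho 0.83 (exact permutation p = 0.0583, n = 6). After adjustment over the 4 relations the Pearson p-values were 0.103, 0.343, 0.362 and 0.0333 and the Spearman p-values 0.117, 0.663, 0.714 and 0.117, in the order given. Leaving out the 2 libraries with totals farthest from the median gave r = 0.53, 0.83, -0.15 and 0.47, so the relation above the promoter in Ethanol rested on Ethanol 1 and Ethanol 6. These relations were chosen after the data were seen. The part of list length in the difference between groups was not tested.

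Variation between animals of the same group gave a further view that leaves out the difference between group means. It still holds the wider spread within Ethanol, where the SD at the promoter region was 12.7 bp per Mb against 4.37 in Control. After group means were removed, the covered length of the promoter region (log2, relative to the library) had a Pearson r of 0.27 and 0.11 with the 2 gene body regions listed in all libraries, over 12 libraries. Over the 9 other regions of the locus the median r was 0.11, from -0.42 to 0.67, against a median of -0.01 over 21613 regions outside 52 to 55 Mb. The highest of the 9 was the region from 53947497 to 53955094 in the dense block. All of these values share the library total as a divisor. The regions elsewhere with the highest r were on chromosome 9 from 79658228 to 79660118 (r = 0.91) and from 31369703 to 31373028 (r = 0.89). They were followed by regions on chromosome 11 from 35260645 to 35262925 (r = 0.86), on chromosome 3 from 123362639 to 123367044 (r = 0.85) and on chromosome 17 from 78046798 to 78050425 (r = 0.84). The lowest r of these 21613 regions was -0.93, so values of this size occurred in both directions. The log2 differences of the 5 regions between Ethanol and Control ran from -0.17 to -0.04, unlike the promoter region at 0.65.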

How the data were processed

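The authors deposited 1 peak list per library as intervals, each with a name and 1 further value. What that deposited score measures, and how peaks were filtered, is not given in the sources used here. The submitters' processing notes name BWA, MACS2 2.1.1, bedtools 2.27.1, featureCounts 1.5.0 and edgeR, without roles, and Rnor_6.0. The labels gave groups and replicate numbers. Without read counts, precision rests on 6 animals a group.

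The locus bounds, the promoter position (widened to multiples of 100 bp), splits and tests were chosen with earlier results of these data known. Covered length is the bp in peaks, by peak start for stretches and clipped to 50 kb windows, divided by each library's total. Regions are unions of peaks sharing at least 1 bp. Log2 differences are ratios of group means. No test was applied to Ethanol against Control. The within-library tests were planned over all 12 libraries and are given for Control alone, since Ethanol holds the selected signal. Regions were named by mean coverage, largest log2 differences and r with the promoter. Python 3.11.15, NumPy 2.4.6, pandas 2.3.3 and SciPy 1.17.1 were used, and steps were tested on simulated data. Zbtb16 matched RefSeq in GRCr8.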

Additional observations from a re-analysis of the deposited data

Results flagged for a closer look

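Of 18 groups of 6 libraries examined, 1 held a value far from the rest, where chance gives about 1 in 20. The median width of the locus peaks relative to the rest of chromosome 8 was 0.47 on the log2 scale in Ethanol 6, and the next Ethanol library had 0.159. Without Ethanol 6 the mean over libraries was 0.06 in place of 0.09.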

How the results depend on the processing

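The alternatives included the replicate number as a block, which by construction gives the main log2 differences again. The within-library tests were put through alternatives over all 12 libraries, Ethanol included, and not on Control alone. There were 59 values under alternatives that kept all libraries or left out both Ethanol 4 and Ethanol 6. The block values, which could not move, and the tests with the selected Ethanol signal are among them. Of the 59, 55 moved by less than the spread between libraries or kept their side of the threshold of those tests. Of these, 4 changed sign: with the same number of peaks (50370) the log2 difference was -0.06 above the promoter against 0.03, -0.04 in the lower flank against 0.12 and -0.17 in the upper flank against 0.01, and without both Ethanol 4 and Ethanol 6 it was -0.03 above the promoter. Without division it was 0.21 there, and the median r of the locus with the promoter region was 0.31 against 0.11 (0.22 over other regions). With the higher scoring 50% of peaks the log2 difference between Ethanol and Control above the promoter was 0.27 against 0.03, and in the flank from 54 to 55 Mb it was -0.46 against 0.01. Over all 12 libraries, where the width ratio was 0.09, it turned to -0.10 with mean widths and was 0.16 against all chromosomes. The causes were not tested. Below and at the promoter, where the main log2 difference was 1.35, it was 1.38 with the same number of peaks and 1.49 without division. With the higher scoring 50% of peaks it was 1.05. At the promoter region these alternatives gave 0.82, 0.78 and 0.46 against 0.65, in the same order. Values without division still hold the differences in list length. Leaving out both Ethanol 4 and Ethanol 6, chosen after seeing the data, gave 1.03 below and at the promoter and 0.36 against 0.54 over 53 to 54 Mb.

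Leaving out each library in turn, the log2 difference ranged from 0.46 to 0.62 over 53 to 54 Mb, from 1.18 to 1.51 below and at the promoter, from 0.47 to 0.76 at the promoter region, from -0.04 to 0.10 above it, from -0.0027 to 0.23 in the lower flank and from -0.05 to 0.07 in the upper flank. The counts of windows and regions whose groups do not overlap ranged from 0 to 1 each, while 0.139% to 0.267% of all windows and 0.068% to 0.119% of all regions had every Ethanol library higher. Over 12 libraries the ratio to the flanks ranged from 0.99 to 1.10, the width ratio from 0.058 to 0.11 and the score difference from -5.01 to -3.91 points.

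The replicate number as a block cannot change a difference of group means (log2 0.54 over 53 to 54 Mb), so it bears on the SE alone. The SE of the paired difference there was 62.7 bp per Mb, against 59.5 without the block. Deviations from the group means correlated between same-numbered libraries by -0.13 to 0.33, so these were not treated as pairs. The block concerned no test.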
